A study of Mus musculus with 577 samples.

Results

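Single granulosa cells of the mouse ovary were compared by their position relative to the oocyte. The cells were chosen by their labels, and 31 were labelled as neighboring the oocyte and 26 as non-neighboring, so that 57 of the 577 samples of the series were compared. A further 3 granulosa cells that the authors kept in a separate table for mixed profiles were left out. Both groups came from the ovaries of 8-week-old female mice, with no treatment and no genetic change stated in the labels, and neither the strain nor the number of mice is named. The ovaries were snap-frozen, cut into sections of 15 μm, fixed and stained with cresyl violet in isopropanol, and cut with a laser (laser capture microdissection, LCM). Each cell was lysed by DRaqL, in which a denaturing detergent opens the fixed cell and is then quenched, and its mRNA was amplified and sequenced at the 3′ end by SC3-seq. According to the study's methods, the cells lay in follicles from the secondary to the early antral stage, and each laser outline was drawn around a single nucleus. The question was whether the transcriptome of a granulosa cell depended on its place beside the oocyte.

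Granulosa cells surround the oocyte, nourish it, and make steroids and inhibin. Those at the oocyte send transzonal projections through the zona pellucida and are joined to it by gap junctions, while the oocyte secretes GDF9 and BMP15, which act on the granulosa cells around it. Cells that face the oocyte become cumulus cells, and cells at the follicle wall become mural cells, which take on more of the steroid synthesis. Inha (the alpha subunit of inhibin) marks granulosa cells in general, Hsd3b1 encodes a steroid dehydrogenase that makes progesterone from pregnenolone, Wnt4 encodes a signal of ovarian somatic cells, and Gdf9 is transcribed in the oocyte.

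The neighboring libraries held 400494 to 1429292 reads on protein-coding genes (median 585673), and the non-neighboring libraries 162033 to 817036 (median 544072). A neighboring cell had reads on 7075 ± 1208 genes (mean ± SD over 31 cells, 5002 to 9983), and a non-neighboring cell on 7334 ± 1035 (26 cells, 5427 to 9309), so the ranges overlapped. When every library was thinned to 162033 reads, the medians were 5181 and 5641 genes. The cell numbers in the labels fell into 3 runs with gaps between them. These were cells 1 to 24 (12 neighboring and 12 non-neighboring), 35 to 69 (10 and 8) and 73 to 100 (9 and 6), and what a run stands for is not given. As the labels name no mouse, each position counted as 1 sample. Values are therefore given with the spread over cells and without a test. Intervals for shares of cells are exact Clopper-Pearson 95% intervals, which treat the cells as independent. They cover the error of counting cells only, and not the spread between runs, follicles or mice. The reads carried no molecular identifiers.

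Some libraries were more alike than single cells of the same kind. Among all 1770 pairs of the 60 granulosa libraries, the 3 mixed-profile cells included, Pearson's r of log2(RPM + 1) across genes, where RPM is the reads of a gene per 1000000 reads of its library, had a median of 0.387 and reached at most 0.494 in all but 5 pairs. In those 5 pairs it was 0.835 (cells 81 and 89), 0.779 (83 and 91), 0.713 (85 and 93), 0.690 (87 and 95) and 0.571 (47 and 50). Of the genes with at least 50 reads in cell 81, 1869 of 1869 had reads in cell 89, and 1603 of 1603 in the reverse direction, whereas the median of this share over the other pairs was 75.4%. The numbers of the first 4 pairs lie 8 apart, and cells 81, 85 and 95 are the mixed-profile cells. The pairs took in 2 neighboring and 5 non-neighboring cells of the 57, so that the counts of most gene lists and the values of several leading genes below are also given for the remaining 29 and 21 cells. Whether these libraries share cells or RNA was not tested.

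Near copies may limit what reads can be assigned to some of the genes that differed most. Obox1 and Obox2, homeobox genes of the oocyte, had coding sequences that were identical at 449 of 456 aligned bases, 98.5%. The annotated span of Obox1 (chr7:15388948-15556866, + strand, GRCm38) also covers Obox2 (chr7:15388721-15398545, + strand) in large part, so their counts are uncertain as separate genes. SC3-seq reads the 3′ end of a transcript, and the untranslated 3′ ends of these genes were not compared. Their first 90 coding bases, which lie at the other end, are shown as an example of the identity of the coding sequences. They lie at chr7:15555162-15555251 in Obox1 and at chr7:15396845-15396934 in Obox2.
Obox1: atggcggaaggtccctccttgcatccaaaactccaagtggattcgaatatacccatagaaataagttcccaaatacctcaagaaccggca
Obox2: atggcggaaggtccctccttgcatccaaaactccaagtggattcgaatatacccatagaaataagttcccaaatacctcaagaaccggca
Hsd3b1 lies in a cluster of related genes on chromosome 3, and the copy compared here, Hsd3b6, was identical at 90.0% of 1122 coding bases.
In the deposited counts, the reads of this cluster were placed mainly on Hsd3b1, with 1572 reads in 11 neighboring cells and 5514 in 17 non-neighboring cells. Hsd3b6 had 1 read in 1 neighboring cell and 2 reads in 2 non-neighboring cells. The more distant Hsd3b7, an enzyme of bile acid synthesis, had 475 reads in 16 neighboring and 1588 in 16 non-neighboring cells.

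Both groups carried the RNA of granulosa cells. Inha (chr1:75507077-75510366, + strand) had 890, 4272 and 11391 RPM in the lowest, median and highest neighboring cell and 1629, 4918 and 17886 RPM in the non-neighboring cells. The ranges overlapped almost entirely, and the mean log2(RPM + 1) was 12.00 ± 0.85 against 12.27 ± 0.72, a difference of -0.27. Differences are neighboring minus non-neighboring here and below. Reads on Inha, Nr5a2, Esr2, Gja1 and Serpine2 were found in 31 of 31 and 26 of 26 cells. These genes encode, in this order, inhibin alpha, a nuclear receptor that granulosa cells need for ovulation, estrogen receptor beta, connexin 43 and a protease inhibitor. Fst (follistatin) had reads in 30 and 26 cells, Amhr2 (the receptor of anti-Müllerian hormone) in 30 and 25, and Fshr (the receptor of FSH) in 31 and 25. Together, the 20 granulosa genes of the list used here took 3866 to 20970 RPM in neighboring cells (median 9884) and 3789 to 35767 in non-neighboring cells (median 9874).

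Markers of other cells were low in most cells of either position. The 5 theca and interstitial markers in the table (Cyp17a1, Star, Ptch1, Gli1 and Aldh1a1) summed to a median of 4.55 RPM in neighboring cells and 48.3 in non-neighboring cells, with highest cells of 1855 and 1420 RPM. Gli1 was at 0 in all 57 cells. The 6 stroma markers had medians of 1.60 and 0 RPM but highest cells of 34.6 and 2728 RPM, the 10 blood and immune markers had medians of 1.64 and 2.61 RPM, and the 5 endothelium markers of 10.8 and 8.96 RPM. The oocyte genes were the exception and are described next.

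Oocyte transcripts were present in most neighboring cells and at far lower levels in most non-neighboring cells. The summed RPM of 14 oocyte genes was 0, 2943 and 17299 in the lowest, median and highest neighboring cell and 0, 64.2 and 14355 in the non-neighboring cells. The groups overlapped, but 22 of 31 neighboring cells reached 1000 RPM against 5 of 26 non-neighboring cells. Set against 30 oocytes of secondary to antral follicles in the same table, whose median was 36922 RPM, the median neighboring cell had 7.97% and the median non-neighboring cell 0.174% of the level of an oocyte. The highest neighboring cell had 46.9% and the highest non-neighboring cell 38.9%. Without the alike libraries, the medians were 1940 and 13.1 RPM, and 20 of 29 and 3 of 21 cells reached 1000 RPM.

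**Figure D1:**
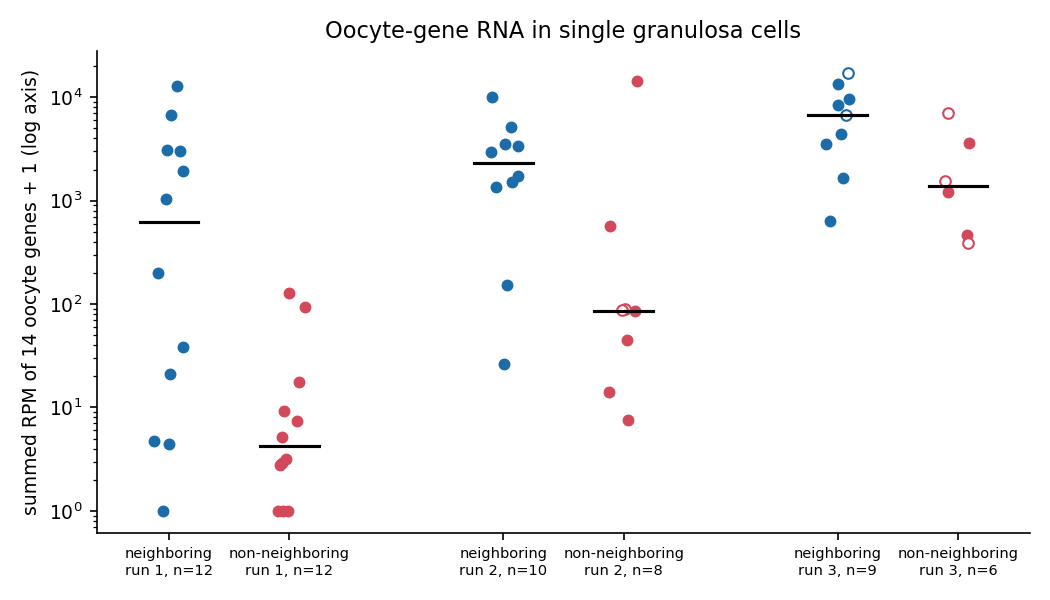
The vertical axis, on a log scale, gives the summed RPM of 14 oocyte genes plus 1 in each of the 57 cells, by position and run of cell numbers. Points are cells, black lines are medians, and open circles are cells of the alike pairs. In each run the neighboring median lies above the non-neighboring one, while both medians are highest in run 3, at 6709 and 1382 RPM.

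The level moved with the run as well as with the position. In run 1 the median was 617 RPM in neighboring and 3.19 RPM in non-neighboring cells, and no non-neighboring cell exceeded 127 RPM. In run 2 the medians were 2336 and 85.4 RPM, and 1 non-neighboring cell, cell 38, reached 14355 RPM. In run 3 they were 6709 and 1382 RPM, and all 15 cells carried at least 389 RPM. The order of the positions was thus the same within each run, and the share of non-neighboring cells at or above 1000 RPM was 0 of 12, 1 of 8 and 4 of 6 in the 3 runs. The part that the run plays in the pooled difference was not tested.

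Gdf9 (chr11:53431023-53437904, + strand), the growth factor of the oocyte, had 0, 96.8 and 2408 RPM in the lowest, median and highest neighboring cell and 0, 1.46 and 1659 RPM in the non-neighboring cells. Reads were found in 27 of 31 neighboring cells (87.1%, 70.2 to 96.4%) and 14 of 26 non-neighboring cells (53.8%, 33.4 to 73.4%), so the groups overlapped at both ends. The mean log2(RPM + 1) was 6.20 ± 3.81 against 2.86 ± 3.57, a difference of 3.34, or 3.87 without the alike libraries. Within the runs the difference was 3.45, 3.48 and 1.49.

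Of the 12415 genes with reads in at least 10 of the 57 cells, 555 (4.47%) had a mean log2(RPM + 1) at least 1 higher in neighboring cells and 1467 (11.8%) one at least 1 higher in non-neighboring cells, with a median difference of -0.15 over all genes. When the median difference was set to 0, these counts were 803 and 1080, and when means of RPM were compared in place of means of log values they were 2209 and 2268, so the excess of genes toward the non-neighboring side depended on the scale. Without the alike libraries, 598 of the 12415 genes were at least 1 higher in neighboring and 1670 in non-neighboring cells, with a median difference of -0.14. The list counts given below without the alike libraries are to be read beside these counts. Against the shares of 4.47% and 11.8%, 13 of the 14 oocyte genes were at least 1 higher in neighboring cells and none was in non-neighboring cells. Their median difference was 2.15 (13 of 14 and 2.40 without the alike libraries). Izumo1r, the oocyte's receptor for sperm, was the remaining gene, at 0.42, with reads in 13 and 10 cells. Of 11 genes of the subcortical maternal complex and other maternal-effect genes, which the egg stores for the embryo, 8 were at least 1 higher in neighboring cells, with a median of 1.36, or 7 without the alike libraries.

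Among the oocyte genes, those with the largest differences were Bcl2l10 (3.53), a BCL2 relative of the oocyte, Obox1 (3.44), Gdf9 (3.34), Obox2 (3.33) and H1foo (3.00), the oocyte's linker histone. Bcl2l10 had 0, 198 and 2712 RPM in the lowest, median and highest neighboring cell and 0, 1.90 and 1260 RPM in non-neighboring cells, and its difference was 3.82, 2.89 and 2.60 in the 3 runs. H1foo had medians of 121 and 6.62 RPM and differences of 2.91, 1.91 and 3.02 in the runs. The zona pellucida genes Zp2 and Zp3 differed less, by 1.08 and 1.09, and in run 2 their differences were -0.05 and -0.27. Bmp15, the partner of GDF9, differed by 1.56 in all cells and by -0.75 in run 2. Tle6 and Padi6, members of the subcortical maternal complex, differed by 2.45 and 1.84, whereas Nlrp5 of the same complex differed by 0.19. The differences of the oocyte genes thus varied in size, and whether they vary by more than the spread over cells was not tested.

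The mean RPM of an oocyte gene, as a percentage of its mean in the 30 oocytes, differed widely between genes. It was 25.0% for Obox1, 19.3% for Bcl2l10, 11.3% for H1foo, 6.54% for Gdf9, 3.86% for Zp3 and 1.54% for Zp2 in neighboring cells. In non-neighboring cells it was 7.95%, 2.88%, 3.64%, 1.98%, 1.01% and 0.970% in the same order. A wider list was made from other cells of the series, by a rule chosen after the data were seen. It took the 323 genes that averaged 6 or more on the log2(RPM + 1) scale over 33 oocytes measured by SMART-Seq v4 methods and lay 5 or more above the average of 36 non-neighboring granulosa cells of those methods. Of these oocyte-enriched genes, 314 had reads in at least 10 of the 57 cells, and 256 of the 323 (79.3%) were higher in neighboring cells, beside 39.7% of all genes compared. Their median difference was 0.57, beside -0.15 over all genes, and 33.1% were at least 1 higher in neighboring and 1.86% in non-neighboring cells. Per gene, the neighboring mean was 11.7% of the oocyte mean at the median, with 3.09% and 31.9% at the 10th and 90th percentiles, and the non-neighboring mean was 5.34%, with 0.736% and 24.5%.

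Counted per cell, reads were found on 64, 153 and 283 of the 323 oocyte-enriched genes in the lowest, median and highest neighboring cell and on 66, 117 and 264 in non-neighboring cells. The range of the non-neighboring cells thus lay within that of the neighboring cells. After thinning to equal depth the medians were 120 and 87 in all cells, 71 and 66.5 in run 1, 101.5 and 91 in run 2, and 210 and 160 in run 3. In run 3 they were 192 and 157 when the alike libraries were left out.

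**Figure D2:**
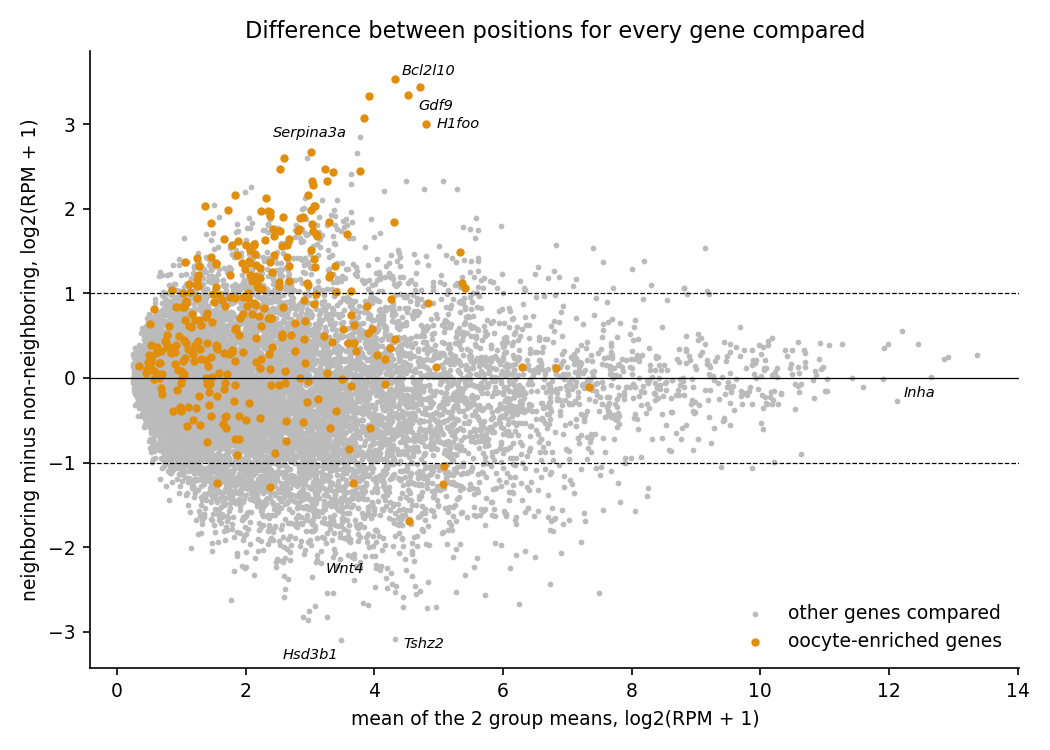
Each point is 1 of 12415 genes, with the mean of the group means of log2(RPM + 1) on the horizontal axis and the difference, neighboring minus non-neighboring, on the vertical axis. Dashed lines lie at differences of 1 and -1, and the oocyte-enriched genes, in orange, lie mainly above 0, while Inha lies near 0 at 12.

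The 10 genes with the largest differences toward neighboring cells, among genes with a mean of at least 4 in either group, were Bcl2l10, Obox1, Gdf9, Obox2, Gm15698, H1foo, Serpina3a, Tcl1, Farsa and Tm2d3. Gm15698 (3.07) and Tcl1 (2.68) were abundant in the 30 oocytes too, with means of 11.17 and 10.70 on the log2(RPM + 1) scale there. Serpina3a, Farsa and Tm2d3 had lower oocyte means of 1.47, 6.43 and 8.19.

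Serpina3a (chr12:104112724-104121896, + strand), a serine protease inhibitor, was the gene of the 10 with the lowest level in oocytes. It had 0, 66.4 and 2368 RPM in the lowest, median and highest neighboring cell and 0, 1.51 and 729 RPM in non-neighboring cells, with reads in 23 of 31 (74.2%, 55.4 to 88.1%) and 14 of 26 cells (53.8%, 33.4 to 73.4%). The groups overlapped, and the mean log2(RPM + 1) was 5.20 ± 3.91 against 2.36 ± 3.01. The difference of 2.84 was 2.67 without the alike libraries and 1.39, 4.08 and 4.04 in the 3 runs. Farsa, a subunit of phenylalanyl-tRNA synthetase, had medians of 42.6 and 0.703 RPM and a difference of 2.66, which was 0.44 in run 2. Serpina3a belongs to a family of neighbouring genes on chromosome 12, and how reads were divided among them is not given.

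Among genes with a mean of at least 4 in either group, Hsd3b1 had the largest difference toward non-neighboring cells. It had 0, 0 and 1152 RPM in the lowest, median and highest neighboring cell and 0, 78.1 and 3265 RPM in non-neighboring cells. Reads were found in 11 of 31 neighboring (35.5%, 19.2 to 54.6%) and 17 of 26 non-neighboring cells (65.4%, 44.3 to 82.8%), and cells without reads occurred in both groups. The mean log2(RPM + 1) was 1.93 ± 3.24 against 5.02 ± 4.21, a difference of -3.09, or -2.97 without the alike libraries, and -2.77, -1.40 and -5.85 in the 3 runs. Of the theca and stroma markers, Ptch1, the Hedgehog receptor, differed in the same direction (-1.62, with reads in 13 and 20 cells), as did Aldh1a1 (-0.65, 10 and 9 cells) and Col1a2 (-0.73, 9 and 6 cells), and the part of other cell types in the difference of Hsd3b1 was not tested.

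**Figure D3:**
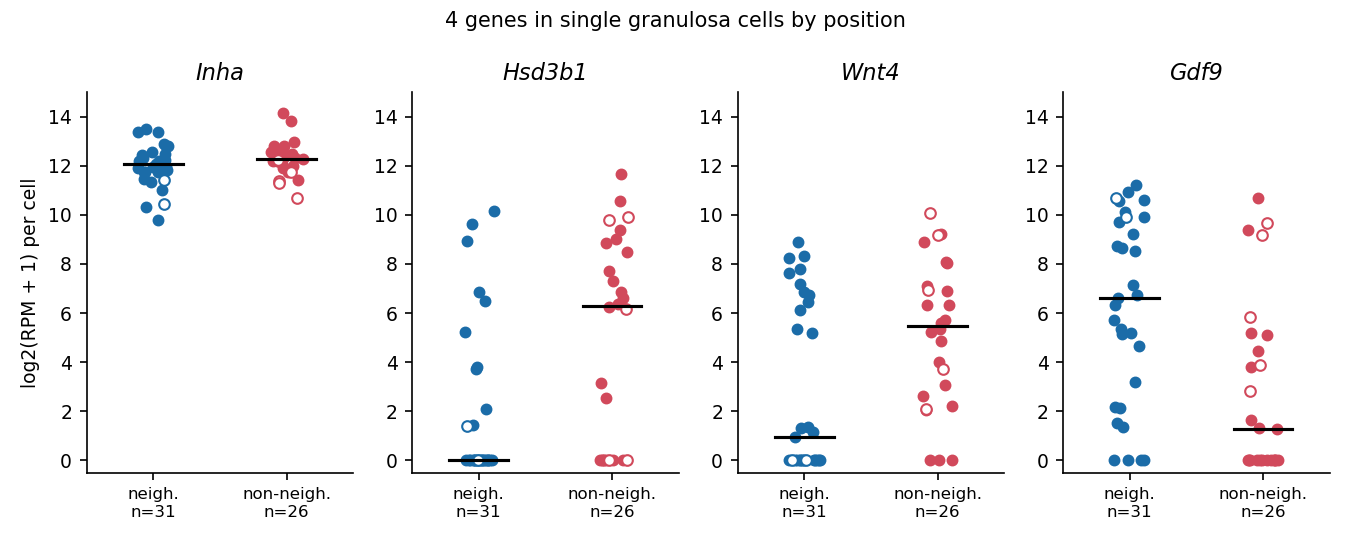
The vertical axes give log2(RPM + 1) of Inha, Hsd3b1, Wnt4 and Gdf9 in each of 31 neighboring (blue) and 26 non-neighboring (red) cells, with black lines at the medians and open circles for the cells of the alike pairs. Inha is high in every cell, whereas the other 3 genes are at 0 in some cells of both positions and high in others.

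Wnt4 (chr4:137277489-137299726, + strand) had 0, 0.953 and 477 RPM in the lowest, median and highest neighboring cell and 0, 43.7 and 1063 RPM in non-neighboring cells. Reads were found in 16 of 31 (51.6%, 33.1 to 69.8%) and 23 of 26 cells (88.5%, 69.8 to 97.6%). The neighboring cells split into those at or near 0 and those as high as most non-neighboring cells, and the difference of the mean log2(RPM + 1) was -2.25, or -1.75 without the alike libraries.

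Tshz2 (chr2:169633013-170071816, + strand), a zinc finger homeobox gene, had reads in all 26 non-neighboring cells and in 22 of 31 neighboring cells (71.0%, 52 to 85.8%). It had 0, 3.04 and 298 RPM in the lowest, median and highest neighboring cell and 1.83, 55.6 and 467 RPM in non-neighboring cells. The difference of -3.09 was similar in the runs, at -2.86, -3.04 and -3.64, and was -3.25 without the alike libraries. Sned1, a protein of the extracellular matrix, also had reads in all 26 non-neighboring cells and in 20 neighboring cells, with medians of 132 and 7.76 RPM, but its difference of -2.70 was -4.87, -0.07 and -2.44 in the runs. The remaining genes of the 10 were Slc29a1 (-2.86), a nucleoside transporter, St6gal1 (-2.83), a sialyltransferase, Selk (-2.82), a selenoprotein of the endoplasmic reticulum, Ntng1 (-2.75), Snrpa1 (-2.72), a protein of the U2 snRNP, Dtnbp1 (-2.70) and Arpc5 (-2.69), a subunit of the actin-nucleating ARP2/3 complex. Each of these 10 genes was lower in neighboring cells in all 3 runs, and each had neighboring cells within the range of the non-neighboring cells.

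Genes of granulosa identity had close means at both positions. Of 18 that could be compared, 1 was at least 1 higher in neighboring cells and none in non-neighboring cells, beside 4.47% and 11.8% of all genes, and their median difference was 0.08. The counts were the same without the alike libraries, and the median was -0.12, so its sign turned. The gene above this line was Nr5a1, the steroidogenic factor SF-1, with medians of 67.4 and 13 RPM and differences of 1.37 in all cells and 0.97, 1.80 and 1.86 in the runs. Its relative Nr5a2 differed by -0.86 and had a lower mean in neighboring cells in each run, although its median RPM was 546 in neighboring and 485 in non-neighboring cells. Fst differed by -0.26, Amhr2 by 0.09, Foxl2, a transcription factor that maintains granulosa cells, by -0.61, and Fshr by -0.71. The steroid list, which shares Fshr, Nr5a1, Nr5a2 and Hsd17b1 with the list before, held 13 genes that could be compared, of which Nr5a1 was above 1 and Hsd3b1 and Fdxr below -1, and 1 and 2 genes were so without the alike libraries. Fdxr, a reductase that feeds electrons to the cholesterol side-chain cleavage enzyme, differed by -1.08, yet by 1.85 in run 3. Cyp11a1, that enzyme itself, had reads in 8 neighboring and 3 non-neighboring cells, and Cyp19a1 (aromatase) in 5 and 4. At this depth no difference could be read from them.

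**Figure D4:**
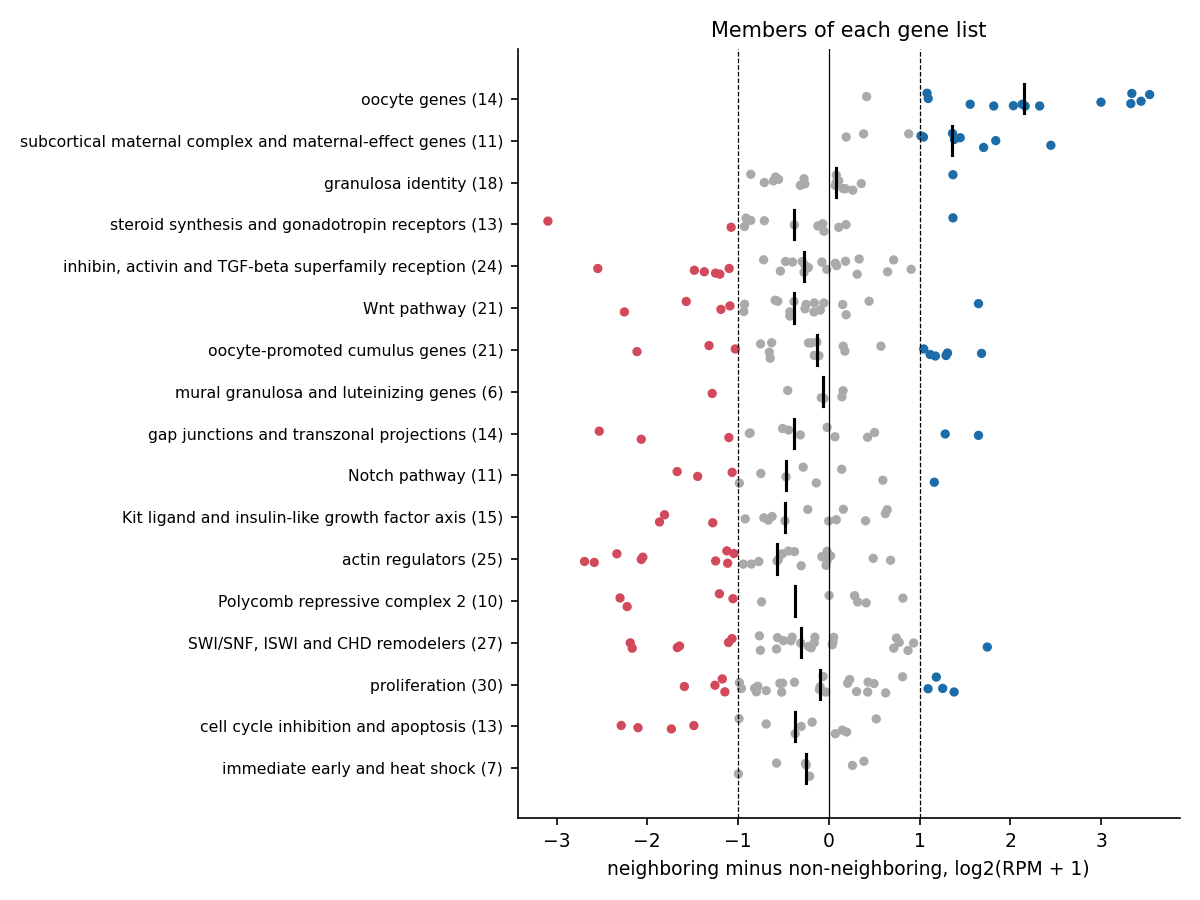
Each point is a gene of the list named at the left, with the number of genes compared in parentheses, placed on the horizontal axis by the difference of the mean log2(RPM + 1), neighboring minus non-neighboring. Black bars are medians, dashed lines lie at 1 and -1, and genes beyond them are blue or red. The oocyte and maternal-effect lists lie to the right, with medians of 2.15 and 1.36, and the medians of the other lists drawn, those with at least 5 genes compared, lie between -0.57 and 0.08.

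Genes that receive signals of the TGF-β family, to which GDF9, BMP15 and activin belong, lay mostly near 0 or on the non-neighboring side in the single cells. Of 24 compared, none was at least 1 higher in neighboring cells and 6 were in non-neighboring cells, namely Tgfbr3, Tgfbr1, Smad3, Smad5, Smad2 and Bmpr1a, with a median of -0.27 over the list, beside 4.47% and 11.8% of all genes and their median of -0.15. Tgfbr3, the inhibin co-receptor betaglycan, differed most, by -2.55, with medians of 3.28 and 20.7 RPM. Without the alike libraries, 4 of 24 were in that direction, beside 1670 of all 12415 genes, with a median of -0.44 beside -0.14. Bmpr2, the type II receptor of BMP15 and GDF9, differed by -0.53, and by -1.10, -2.49 and 2.86 in the runs. In the other sets described below, Tgfbr3 was lower in neighboring libraries in 7 of 8. Tgfbr1, Smad2 and Smad3 were lower in 5, Smad5 in 4 and Bmpr1a in 3, while Smad7 was higher in 8 of 8. In the pools, 13 of 20 genes of this list had a log2 fold change above 0, with a median of 0.22, and none was called. In the Wnt list, 4 of 21 genes (Wnt4, Tcf7l1, Tcf7l2 and Fzd3) were at least 1 higher in non-neighboring cells and 1, Ctnnb1 (β-catenin), was 1.65 higher in neighboring cells, and without the alike libraries these counts were 3 and 1. Of 11 Notch genes, the target Heyl was 1.16 higher in neighboring cells, and Maml1 and Rbpj, which serve transcription in this pathway, were 1.67 and 1.45 lower. In all, 1 Notch gene was at least 1 higher in neighboring and 3 in non-neighboring cells, or 0 and 5 without the alike libraries.

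Cumulus genes that oocytes are known to promote lay on both sides in the single cells. Of 21 compared, 6 were at least 1 higher in neighboring cells, among them the glycolytic genes Ldha (1.31), Pkm (1.29) and Aldoa (1.17) and the cholesterol synthesis genes Sqle (1.68), Fdft1 (1.12) and Cyp51 (1.05). A further 3 were at least 1 lower, namely Slc38a3 (-2.11), an amino acid transporter, Impdh2 (-1.32) and Mvk (-1.03). Of all genes, 4.47% and 11.8% were at least 1 higher and lower, and the list median was -0.13 beside their -0.15. Without the alike libraries, 2 were at least 1 higher and 4 at least 1 lower, with a median of 0.15 and with Pkm and Aldoa at 0.97 each. Ldha kept its direction in each run (1.86, 0.52 and 2.24), while Sqle was lower in neighboring cells in run 3 (-1.42) and Slc38a3 differed by -5.04, -0.48 and 0.80. Ldha had medians of 254 and 81.2 RPM and Slc38a3 of 79.7 and 443 RPM, with overlapping ranges. Amh, another gene of this list, had reads in 10 and 6 cells and differed by 0.16. Fdft1 is also among the oocyte-enriched genes, with a mean of 806 RPM in oocytes of secondary to antral follicles. In the pools described below, 17 of 19 genes of this list had a log2 fold change above 0, beside 4818 of all 9704. The list median there was 0.42, and none of these genes was called. Of 6 mural and luteinizing genes, Prlr, the prolactin receptor, differed by -1.28, with reads in 13 and 17 cells.

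Actin regulators lay mostly on the non-neighboring side in the single cells. Of 25 compared, none was at least 1 higher in neighboring cells and 9 were in non-neighboring cells, beside 4.47% and 11.8% of all genes. The median was -0.57 beside -0.15 over all genes, and without the alike libraries the count was also 9 and the median -0.80. The 9 genes were Arpc5 (-2.69), the WAVE and N-WASP genes Wasf2 (-2.58) and Wasl (-2.34), Enah (-2.07), Flna (-2.05), Evl, Tmsb10, Pfn1 and Arpc4. The summed RPM of the list was 787, 3579 and 5634 in the lowest, median and highest neighboring cell and 3131, 4650 and 8201 in non-neighboring cells, and these ranges overlapped. Flna, the actin cross-linker filamin A, had medians of 8.45 and 117 RPM. In the other sets described below, Flna was lower in neighboring libraries in 8 of 8 and Tmsb10 in 7. Arpc5 and Enah were lower in 5, Wasf2 and Evl in 4, and Wasl, Pfn1 and Arpc4 in 3. In the pools, 10 of 26 actin genes had a log2 fold change above 0, beside 4818 of all 9704. Their median was -0.21, and none was called. In the list of gap junctions and transzonal projections, Gja1 differed by -0.31, and the actin and junction genes Tjp1 (-2.53), Enah (-2.07) and Ctnna1 (-1.10) were lower in neighboring cells. Gja4, the connexin of the oocyte's side of the gap junction, was 1.28 higher, with a mean of 10.14 in oocytes on the same scale.

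In the list of Polycomb repressive complex 2, which methylates histone H3 at silenced genes, 4 of 10 genes were at least 1 higher in non-neighboring cells (Suz12, Jarid2, Ezh1 and Rbbp4) and none in neighboring cells, or 3 without the alike libraries. The catalytic subunit Ezh2 differed by 0.82. Suz12 had 0, 2.07 and 348 RPM in the lowest, median and highest neighboring cell and 1.60, 53.3 and 933 RPM in non-neighboring cells, and its difference of -2.30 was -4.77, -1.61 and 0.32 in the runs. Of 27 chromatin remodelers, 6 were at least 1 higher in non-neighboring cells, led by Chd2 (-2.19) and Smarca5 (-2.17), and 1, Chd1 (1.75), in neighboring cells, beside 11.8% and 4.47% of all genes. These counts were 5 and 3 without the alike libraries. The 13 genes that the study names for non-neighboring cells, among them Ogt (-2.51) and Trp53 (-2.10), all lay between -2.55 and -1.97, but they were chosen on these same cells, so their direction is not independent evidence. Suz12, Jarid2, Smarca5, Enah, Flna, Wnt4, Tgfbr3 and Trp53 belong to these genes and are also counted in the lists. The counts of those lists are therefore not independent of the study's choice either.

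Proliferation genes lay on both sides as well. Of 30 compared, 4 were at least 1 higher in neighboring cells, including Mcm6 (1.38) and Ccnd2 (1.09), the cyclin D2 of FSH-driven growth, and 4 in non-neighboring cells, including Ccna2 (-1.59) and Cdk1 (-1.15). The median was -0.10, and all genes had shares of 4.47% and 11.8%. When the alike libraries were left out, 3 proliferation genes were at least 1 higher in neighboring and 6 in non-neighboring cells, with a median of -0.44. Mki67 had reads in 29 and 23 cells and differed by -0.52, and by -2.01, -1.03 and 2.78 in the runs. In the other sets described below, Ccna2 and Cdk1 were higher in neighboring libraries in 7 of 8. Of 13 genes of cell cycle inhibition and apoptosis, 4 were at least 1 higher in non-neighboring cells, led by Itih5 (-2.29), a hyaluronan-binding protein of the extracellular matrix, or 3 without the alike libraries. In the axis of Kit ligand and insulin-like growth factor, 3 of 15 were, among them Igfbp5 (-1.87) and Igf1r (-1.81), or 5 of 15 without the alike libraries, and Kitl had reads in 10 and 5 cells. None of 7 immediate early and heat shock genes, of 4 endothelium, 3 stroma or 2 blood markers, or of 2 cumulus expansion genes passed 1 in either direction, while without the alike libraries 1 immediate early or heat shock gene and 1 cumulus expansion gene were at least 1 higher in non-neighboring cells.

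Other granulosa cells of early antral follicles had been collected as pools of about 10 cells, 7 neighboring and 7 non-neighboring, with 3811945 to 8259281 reads and medians of 11728 and 12544 detectable genes. These pools were the libraries with replicates and held other cells than the 57. With edgeR's quasi-likelihood test and Benjamini-Hochberg adjustment, 44 of 9704 genes (0.453%) were higher in neighboring pools at an adjusted p under 0.05 and 0 (0%) in non-neighboring pools. At an unadjusted p under 0.05 the counts were 245 and 157, and DESeq2 called 1.08% and 0.113% of these genes. With the pool number as a replicate block, edgeR called 3 and 0 genes, and whether the numbers pair the pools was not settled. The labels name no mouse for a pool, so the p-values measure the spread between pools, and in a pool fewer cells of a type cannot be told apart from less RNA per cell.

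Most genes called in the pools were oocyte-enriched. Of the 44, 35 were among the 241 oocyte-enriched genes in this test, and the others included Obox5, Zar1l, Nlrp2, Oosp3 and members of the Tcl1b family, which the egg also expresses. Gdf9 had 56.8, 237 and 1691 RPM in the lowest, median and highest neighboring pool and 0, 7.20 and 22.2 RPM in the non-neighboring pools, so that the groups did not overlap, and its log2 fold change was 6.28 ± 1.12 (SE; adjusted p = 0.0197 by edgeR). Zar1, a maternal-effect gene, had a log2 fold change of 5.54 (adjusted p = 0.0103 by edgeR), and Gm15698 one of 6.94 (adjusted p = 0.0103). In all, 9 of 14 oocyte genes and 3 of 9 maternal-effect genes were called. The count of called genes was 29 without pool 1 of both positions, 27 without pool 3, 6 without pool 4, 5 without pool 5, 10 without pool 6 and 22 without pool 7. The adjusted p of Gdf9 lay between 0.0188 and 0.0809 by edgeR in these fits.

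In the granulosa lists other than the oocyte and maternal-effect ones, the pool test called 1 gene, Gja4 (log2 fold change 4.99, adjusted p = 0.0420 by edgeR). Hsd3b1 had log2(RPM + 1) values of 10.85, 7.99, 0, 0, 0.31, 3.28 and 0 in the 7 neighboring pools and 10.37, 10.65, 9.52, 5.36, 8.88, 12.08 and 6.58 in the non-neighboring pools. Of the neighboring pools, 5 lay below every non-neighboring pool and 2 lay among them. Its mean difference of -5.86 had a two-sided exact permutation p of 0.0140 over the 3432 arrangements of the pools, whereas edgeR gave a log2 fold change of -2.38 ± 1.58 (SE) and an adjusted p of 0.998. The same exact permutation test gave p = 0.000583 for Gdf9, the smallest p it can give, 0.720 for Wnt4 and 0.932 for Inha. These 4 tests were chosen with earlier results of these data known and are not adjusted.

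Serpina3a had 58.4, 541 and 1137 RPM in the lowest, median and highest neighboring pool and 0, 63.9 and 177 RPM in non-neighboring pools, which overlapped, and its log2 fold change of 3.15 had an adjusted p of 0.345 by edgeR and 0.0161 by DESeq2. Ldha had a log2 fold change of 2.15 (adjusted p = 0.255 by edgeR). Tshz2 had a log2 fold change of -1.30, with an adjusted p of 0.998 by edgeR. Suz12, which was lower in neighboring single cells, had 17.2, 60.8 and 195 RPM in the neighboring pools and 0.400, 10.0 and 17.8 RPM in the non-neighboring pools, a log2 fold change of 3.27 (adjusted p = 0.277 by edgeR).

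The same contrast of positions was available in 8 sets, the pools and 7 sets of single cells prepared by other methods, none of which shares a library with the 57 cells. The single-cell sets hold between 12 and 35 cells a position, and the set of freshly dissociated cells took its non-neighboring cells from the same cumulus-oocyte complexes. The study reports profiles mixed with those of oocytes in part of these dissociated cells, more often in cells attached to oocytes. Such cells were kept in the dissociated set, whereas the mixed-profile cells were left out of the 57. The median summed RPM of the 14 oocyte genes was higher in neighboring libraries in each set, from 157 against 155 RPM in the dissociated cells to 1582 against 66.4 RPM in the pools. Gdf9 was higher in 8 of 8 sets, by 0.14 to 5.99 on the log2(RPM + 1) scale. Of the 77 genes (0.62% of those compared) that were at least 1.8 higher in neighboring single cells, 36 were oocyte-enriched, and 34 to 36 of these were higher in neighboring libraries in each set, although the SMART-Seq v4 sets had served to choose them. The other 41 genes had the same direction in 24 (58.5%) in the pools, where 50.3% of all genes were higher in neighboring libraries, in 19 to 26 (46.3% to 63.4%) in the sets of sections, where 42.9% to 61.6% of all genes were, and in 8 (19.5%) in the dissociated cells, where the share of all genes was 21.7%.

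**Figure D5:**
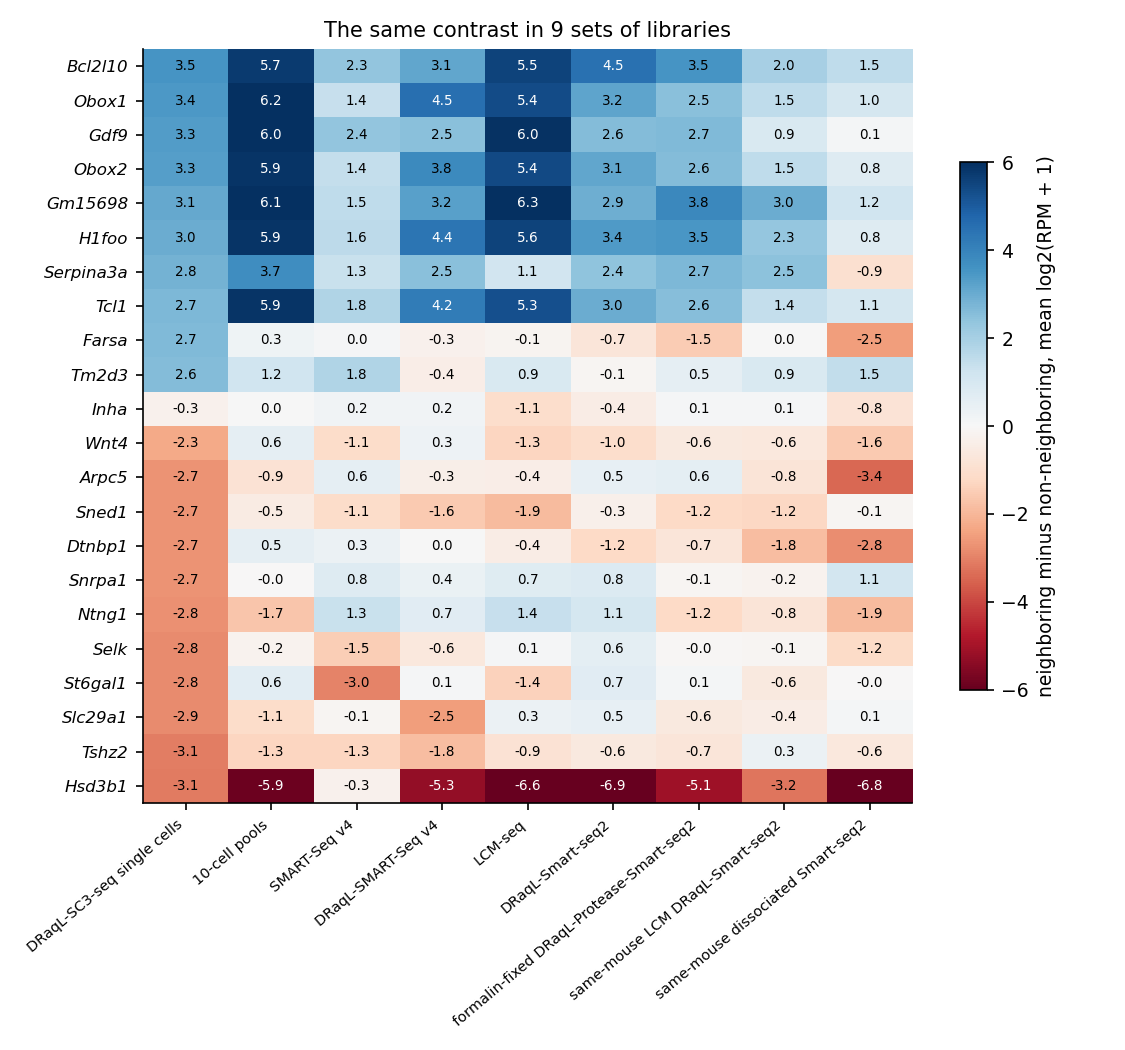
Rows are the 4 marker genes and the 10 genes with the largest differences in each direction, columns are the single cells of this comparison and 8 other sets, and colours and numbers give the difference of the mean log2(RPM + 1), neighboring minus non-neighboring. The oocyte genes at the top are above 0 in every column, Hsd3b1 at the bottom is below 0 in every column, and many rows between them have both signs.

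Hsd3b1 was lower in neighboring libraries in 8 of 8 sets, by 0.26 to 6.90 on the log2(RPM + 1) scale. Prlr (-3.39 to -0.35), Nr5a2 (-3.30 to -0.10), Flna (-3.05 to -0.80) and Sned1 (-1.88 to -0.13) were lower in 8 of 8 sets too, as were the theca and stroma markers Aldh1a1 (-4.21 to -1.26), Col1a2 (-5.11 to -0.47) and Dcn (-3.50 to -0.60) and the steroid gene Cyp11a1 (-4.40 to -0.76), whose part in these differences was not tested. Tshz2, Itih5 and Igfbp5 were lower in 7 of 8 sets. Toward the other side, Heyl (0.06 to 2.97) and Gja4 (0.70 to 4.21) were higher in 8 of 8 sets, Serpina3a (-0.95 to 3.74) in 7, with the dissociated cells as the exception, and Ldha in 7. Mki67, at -0.52 in the 57 cells, was higher in neighboring libraries in 8 of 8 other sets, by 0.53 to 3.25. Ccna2, Cdk1 and Birc5, at least 1 lower in neighboring cells of the 57, were higher in neighboring libraries in 7 of 8 sets, and Bub1 in 6. Mcm6 and Ccnd2 were so in 7, and Rrm1 and Ccne1 in 5. Birc5 is also among the oocyte-enriched genes, with a mean of 716 RPM in oocytes of secondary to antral follicles. Ccna2 and Cdk1 had means of 170 and 64.96 RPM in these oocytes. The part of oocyte RNA in the differences of the proliferation genes was not tested. In the pools, 22 of 28 proliferation genes had a log2 fold change above 0, beside 4818 of all 9704. The medians were 0.58 and -0.01, and no proliferation gene was called. Suz12 was higher in 5 of 8 and Wnt4 lower in 6 of 8. Of those compared, 199 genes (1.60%) were at least 1.8 higher in non-neighboring single cells. The share of these with the same direction was 57.3% in the pools, where 49.7% of all genes lay on that side. It was below the share of all genes in the DRaqL-Smart-seq2 set (39.7% beside 43.6%). In the other single-cell sets it was above that share, from 51.8% beside 37.9% in the LCM-seq set to 90.5% beside 72.0% in the dissociated cells.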

How the data were processed

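RNA was measured by DRaqL-SC3-seq in 57 single granulosa cells. The authors deposited whole-number read counts per gene without normalization, from GRCm38. The submitters' processing notes name fastp 0.20.0, cutadapt 1.16, HISAT2 2.1.0, HTSeq 0.10.0 and featureCounts 2.0.1 without giving their roles. Values are for 22060 protein-coding genes, and noncoding entries of the tables with 45905 genes were dropped. Counts were divided by the library total and multiplied by 1000000 (RPM), and means of log2(RPM + 1) were compared over genes with reads in at least 10 cells, a scale that understates differences of low genes. A single library held 162033 to 1429292 reads, and at this depth low genes are missed in many cells.

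A difference of at least 1 was counted, and 1.8 as a stricter line. No test was made over cells. The pools were tested with edgeR 4.0.16 (TMM, filterByExpr, quasi-likelihood F-test, Benjamini-Hochberg adjustment, threshold 0.05), with DESeq2 1.42.0 as an alternative, in R 4.3.3. The main test took the pools as unpaired, and whether the pool numbers pair them was not settled. The rest was computed in python 3.11.15 with pandas 2.3.3, scipy 1.17.1 and numpy 2.4.6. The pool test and the counts over cells were tested on simulated data. Coordinates and sequences came from the GENCODE annotation and transcripts of GRCm38.

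The members, the gene lists and the tests were chosen with earlier results of these data known. Genes are named by a rule that takes the 4 marker genes, the 2 to 4 members of each list with the largest absolute differences, and, for each direction, the 10 genes that differed most and averaged 4 or more in either group. Other genes of the lists and those called in the pools are named beside their counts, and were chosen after their values were seen. Diaph1 and Insl3 were not analysed here. Some other results on single genes and sequences are not reported here. The alternatives were other pseudocounts, no filter, TMM factors, ratios of mean RPM, thinning, the mixed-profile cells, leaving out each run, and, added after the data were seen, centring, the mean of within-run differences and leaving out the alike libraries.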

Additional observations from a re-analysis of the deposited data

Results flagged for a closer look

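In the 10-cell pools, 44 groups of 7 values were examined for a highest or lowest pool that stood apart by Dixon's test, and 7 were flagged, where chance flags about 1 in 20 groups. All values are log2(RPM + 1). Among non-neighboring pools, Arpc5 had 8.334 in pool 6, above a next value of 6.303, Obox2 had 4.794 in pool 5, above 2.07, Dtnbp1 had 0 in pool 6, below 5.209, Ntng1 had 0.2629 in pool 2, below 5.308, and Snrpa1 had 3.232 in pool 2, below 5.514. Among neighboring pools, Farsa had 0.5622 in pool 5, below 5.755, and Snrpa1 had 0.4981 in pool 3, below 6.491.

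The 3 mixed-profile cells, which were left out of the main comparison of positions, carried oocyte transcripts. The summed RPM of the 14 oocyte genes was 1486.85 in cell 81 and 2949.03 in cell 85, both labelled non-neighboring, and 11803.1 in cell 95, labelled neighboring. Of the 323 oocyte-enriched genes, they had reads on 258, 271 and 321.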

How the results depend on the processing

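The counts of genes at least 1 higher in neighboring and in non-neighboring cells, 555 and 1467, were 1213 and 2752 with a pseudocount of 0.1, 124 and 315 with a pseudocount of 10, 2209 and 2268 for ratios of mean RPM, and 77 and 199 at a difference of 1.8. Without run 1 of the cell numbers they were 1458 and 1523, without run 2 900 and 1992, and without run 3 473 and 2260. Neighboring genes were 27.4% of both counts together, 42.6% after centring, 48.9% without run 1 and 17.3% without run 3. The other settings gave 555 to 803 and 1080 to 1670. The cause of these shifts was not tested.

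The differences of Gdf9 (1.72 to 4.46), Hsd3b1 (-4.13 to -1.97), Wnt4 (-3.50 to -1.10), detectable genes (-513 to -93.5) and median oocyte-gene RPM (1606 to 3072) had the same sign in each of 6 to 10 alternatives. That of Inha ranged from -0.57 to 0.05, and was above 0 only without run 1.

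In the pools, 44 genes were higher in neighboring and 0 in non-neighboring pools. These were 0.453% and 0% of the genes tested, and DESeq2 called 1.08% and 0.113% of them. Without a filter on low counts the counts were 55 and 1. Leaving out each pool number gave 5 to 34 and 0 to 1. With the pool number as a replicate block they were 3 and 0, and all 3 genes were among the 44. The labels do not say whether pools of the same number belong together. Same-numbered pools correlated by over 0.1 in 2 of 7 cases (0.0143 to 0.204), and 4 of 7 correlated best with their own number. These values do not settle whether the pools were paired, so the main test may leave out a pairing. Depth limits single cells most, at 162033 reads in the shallowest library.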

Other observations

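Pairs of cells had close correlations within and between positions. Over pairs of the 57 cells, the median Pearson's r of log2(RPM + 1) across genes, which are not independent replicates, was 0.382 for neighboring cells (465 pairs), 0.386 for non-neighboring cells (325 pairs) and 0.382 between positions (806 pairs). It was 0.392 within a run of cell numbers (534 pairs) and 0.377 between runs (1062 pairs). Without the alike libraries, the medians by position were 0.385, 0.393 and 0.387.

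The mixed-profile cells held reads of granulosa and of oocyte genes. Inha had a log2(RPM + 1) of 12.08 in cell 81, 11.89 in cell 85 and 9.66 in cell 95, and Gdf9 7.83, 7.46 and 11.35. Cell 95 had reads on 12233 genes, more than any of the 57 cells, and cells 81 and 85 on 7568 and 6979. Cell 93, whose library was alike to that of cell 85 and which was among the 57, had a summed oocyte-gene RPM of 17299, or 46.9% of the oocytes' level.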
